A study of Mus musculus with 24 samples.

Results

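Vps26c, Dop1b and 8 genes of the retromer and sorting nexin machinery were examined for a difference between the brains of 2N and Ts1Cje mice. The 10 genes were chosen by symbol, as the probe sets of a pair of Affymetrix mouse array designs (MGU74A and MGU74B, called arrays A and B) whose platform annotation names one of them alone. All 10 were found, on 20 probe sets, among 13674 named genes and 24833 probe sets on both arrays. Vps26c and Dop1b lie on the part of mouse chromosome 16 that Ts1Cje mice carry in 3 copies. Vps26a, Vps26b, Vps35, Vps29, Snx1, Snx2, Snx27 and Mon2 lie on other chromosomes and are disomic in both genotypes.

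Total RNA from brain was hybridised to 12 arrays of each design, 6 labelled 2N and 6 labelled Ts1Cje. The 2N samples have the normal chromosome complement. Ts1Cje, a mouse model of Down syndrome, has a partial trisomy of distal chromosome 16, and the translocated copy begins at Sod1, which is disrupted on that copy, which is joined to chromosome 12. The labels give no brain region, age, sex or strain. Nothing in them ties a sample to an animal of its own, and p-values therefore describe only the variation among these arrays, technical variation included. Values are intensities after quantile normalisation, and differences are Ts1Cje minus 2N on the log2 scale with the standard error (SE) of a limma fit over all probe sets of the table. The threshold for passing was a Benjamini-Hochberg adjusted p of 0.05 across the table.

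Retromer is a complex of Vps26, Vps35 and Vps29 on endosomes. It retrieves membrane proteins from the path to the lysosome and returns them to the Golgi or the cell surface. Vps26a and Vps26b are alternative subunits of retromer, and Vps26c (formerly Dscr3) is their relative in another complex, retriever, which shares Vps29 and uses Vps35l in place of Vps35. Retriever recycles integrins and other surface proteins with the cargo adaptor Snx17 and the CCC complex of Commd proteins. Sorting nexins bind endosomal lipids: Snx1 and Snx2 bend the membrane into tubules, and Snx27 recognises receptors, among them neuronal glutamate receptors, and hands them to retromer. Dop1b (formerly Dopey2) and Mon2 are large scaffold proteins of the Golgi and endosomes that, in yeast, worms and human cells, act with a phospholipid flippase of the Atp9 family. In neurons this system sorts the amyloid precursor protein, and human VPS35 variants cause a form of Parkinson disease.

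Vps26c and Dop1b were both higher in Ts1Cje brain, by 1.58-fold and 1.64-fold, and they were the members that passed. On array A 1 of 10 tested member probe sets passed, where 0.0966 percent of all 9316 tested probe sets did. On array B 1 of 8 passed, where 0.0645 percent of 9308 did. Every probe set that passed on either array was higher in Ts1Cje. The genotypes did not overlap for 1 member probe set on each array, which in either direction held for 0.301 percent of tested probe sets on array A and 0.247 percent on array B. None of the 15 tested probe sets of the 8 disomic members passed, and their median difference was -0.04, where the median of all tested probe sets was -0.0042 (array A) and -0.0035 (array B). In whole tissue, fewer cells of a type and less RNA per cell cannot be told apart.

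The promoters of the members that rose are shown because both genes carry the extra copy. Each line gives the 250 bases before the annotated start of transcription, from RefSeq on GRCm38.p6, 5′ to 3′ on the strand of the gene, with matches to the GC box GGGCGG on either strand in capitals. The Vps26c window is chr16:94526630-94526879, minus strand, and the Dop1b window is chr16:93711657-93711906, plus strand.
Vps26c: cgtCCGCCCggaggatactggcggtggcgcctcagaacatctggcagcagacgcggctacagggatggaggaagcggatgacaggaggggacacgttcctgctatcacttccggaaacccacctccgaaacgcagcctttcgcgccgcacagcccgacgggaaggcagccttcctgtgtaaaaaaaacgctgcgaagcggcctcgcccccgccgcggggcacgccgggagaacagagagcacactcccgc
Dop1b: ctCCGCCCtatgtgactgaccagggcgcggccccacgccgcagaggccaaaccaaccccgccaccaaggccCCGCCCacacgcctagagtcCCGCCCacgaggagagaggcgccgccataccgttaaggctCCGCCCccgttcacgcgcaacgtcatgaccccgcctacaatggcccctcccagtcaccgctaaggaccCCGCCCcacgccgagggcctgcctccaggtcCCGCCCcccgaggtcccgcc
The Dop1b window held 6 matches to the GC box and the Vps26c window held 1, and 32.7% of 32851 windows of the same length held at least 1. Neither window matched the TATA box (TATAAA), which 12.4% of windows held on either strand. The CCAAT box was likewise absent from both and held by 33.8% of windows. The E-box CACGTG was held by 6.02% of windows and the cAMP response element TGACGTCA by 1.55%, and neither was found in these windows. The G and C content was 65.6% for Vps26c and 72.4% for Dop1b, against a median of 52.4% over all windows. Of the disomic members, only Vps26a, Vps26b, Vps29 and Snx1 had windows examined. The first listed Vps26a window held 4 GC boxes and 1 E-box. The second Vps26a window held 3 GC boxes and 2 E-boxes. Vps29 and Snx1 held 2 GC boxes each, Snx1 also held 1 CCAAT box, and Vps26b held none of these motifs. The G and C content was 64.4% and 74% for the Vps26a windows, 60.8% for Vps29, 57.2% for Vps26b and 56.4% for Snx1. All lay above the median of 52.4%, so a content above it was not particular to the trisomic members. A match of letters is a description and not a binding site, and the second annotated start of Dop1b, not printed, held 0 GC boxes and 57.6% G and C.

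Vps26c, the retriever subunit, had 2 probe sets on array A. The one on which the call rests ran from 60.8 to 86.7 in 2N with a median of 72.7, and from 96.9 to 126 in Ts1Cje with a median of 117. All 6 Ts1Cje samples lay above all 6 2N samples, a separation in this direction that 0.193 percent of the tested probe sets of array A showed. Mean intensities were 72.9 ± 8.34 (2N) and 115 ± 10.3 (Ts1Cje; SD, n = 6 each). The log2 difference was 0.66 (SE 0.099, 95% interval 0.45 to 0.87, limma adjusted p = 0.0055). Its p-value ranked 6 among the 9316 probe sets, and the interval, from 1.37-fold to 1.83-fold, held the 1.5-fold ratio of 3 copies to 2.

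The other Vps26c probe set bears the suffix f, which Affymetrix gave to sets whose probes can match related sequences. It ran from 64.5 to 81.8 in 2N with a median of 67.2, and from 73.9 to 107 in Ts1Cje with a median of 93.2. Here 5 of 6 Ts1Cje samples lay above every 2N sample, and Ts1Cje replicate 2 fell inside the 2N range. The difference was 0.40 (SE 0.11, 95% interval 0.18 to 0.62), and it missed the threshold (limma adjusted p = 0.62). The difference of the first probe set exceeded it by 0.26 (95% interval -0.014 to 0.54, limma adjusted p = 0.082), which did not pass, while the two-sided exact permutation p of that margin alone was 0.048.

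Dop1b, the scaffold protein gene, had 1 probe set, on array B. Its intensity ran from 41.8 to 54.1 in 2N with a median of 45.7, and from 67.0 to 85.0 in Ts1Cje with a median of 76.3. The groups did not overlap, and 0.193 percent of array B probe sets were likewise higher in Ts1Cje with no overlap. Mean intensities were 46.4 ± 4.47 (2N) and 76.2 ± 8.4 (Ts1Cje; SD, n = 6 each). The log2 difference was 0.72 (SE 0.0995, 95% interval 0.51 to 0.92, limma adjusted p = 0.0096), the smallest p-value of the 9308 probe sets. This interval, 1.42-fold to 1.90-fold, also held 1.5-fold. Vps26c and Dop1b were measured on different designs, so their differences were not tested against each other.

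**Figure D1:**
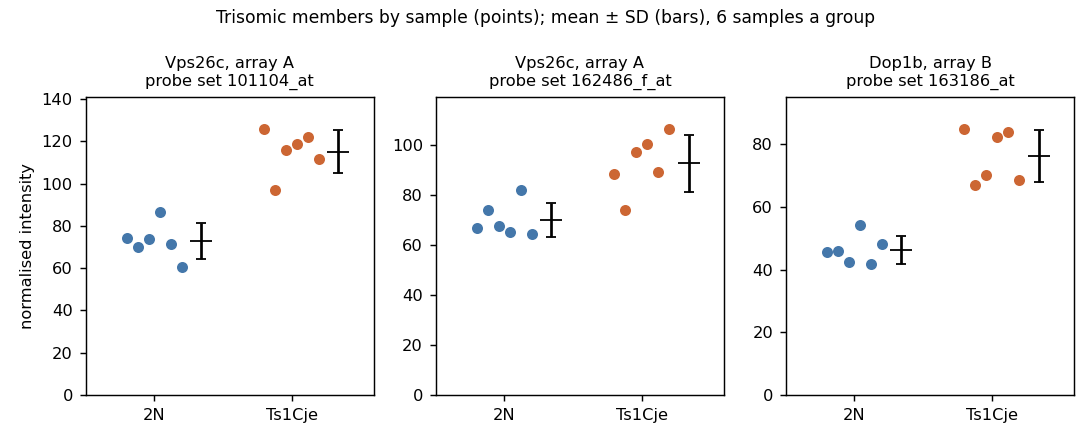
Normalised intensity (vertical axis, linear, from 0) of the 2 Vps26c probe sets and the Dop1b probe set in each sample, with the group mean ± SD beside the points (n = 6). For the first Vps26c probe set and for Dop1b the lowest Ts1Cje sample (96.9 and 67.0) lies above the highest 2N sample (86.7 and 54.1), and for the second Vps26c probe set the groups overlap in 1 Ts1Cje sample.

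The labels give no batch. After genotype means were subtracted, pairs of samples of different genotype on the same side of a split between numbers 1 to 2 and 3 to 6 had a median r of 0.034 on array A and 0.024 on array B. Pairs on opposite sides had a median r of -0.042 and -0.035. Subtracting the means holds the average over all such pairs near 0. The sign on opposite sides therefore follows from that on the same side and is not a separate observation. All are correlations across probe sets, and on both arrays the ranges of the 20 and 16 pairs overlapped. No label gives this split. Among replicates 3 to 6 the difference was 0.69 for the brighter Vps26c probe set and 0.71 for Dop1b (two-sided exact permutation p = 0.029 for each, the smallest that 4 against 4 allows). Because the genotypes did not overlap over all samples, that p was fixed in advance and adds no support. Among replicates 1 and 2 the difference was 0.61 and 0.72, where 2 against 2 cannot fall below an exact permutation p of 0.33. The calls rested on the normalisation and on the variance model: without normalisation between arrays the differences were 0.61 and 0.77 and neither passed (limma adjusted p = 0.99991 and 0.99996). Without the mean-variance trend the adjusted p was 0.051 for Vps26c and 0.16 for Dop1b.

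The gene order of GRCm38.p6 places Dop1b 39 protein-coding genes distal to Sod1, with 8 more between Dop1b and Vps26c. Vps26c lies between Ttc3 and Dyrk1a. Among 54 genes distal to Sod1 with a tested probe set, the difference of Dop1b ranked 9 and that of Vps26c ranked 12 from the top, where the median was 0.48 and 12 genes passed. These ranks mix both arrays and take no account of the errors. Sod1 itself differed by 0.39 (SE 0.12) on array A and, by a dim probe set, 0.80 (SE 0.26) on array B, and neither passed (limma adjusted p = 0.99 and 0.996).

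None of the 5 tested probe sets of the retromer subunits passed. Vps35, the scaffold that joins the other subunits, ran from 185 to 206 in 2N with a median of 194, and from 168 to 211 in Ts1Cje with a median of 189. The groups overlapped, and 1 of 6 Ts1Cje samples lay above the 2N median. The difference was -0.05 (SE 0.073, 95% interval -0.20 to 0.10, limma adjusted p = 0.99), so changes beyond 1.07-fold upward lay outside the interval. A second Vps35 probe set was dim, between 0.467 and 7.23 with 4 samples at the floor, and was not tested. Vps29, the subunit that retromer and retriever share, ran from 66.6 to 96.3 in 2N and from 65.8 to 95.9 in Ts1Cje, with medians of 79.1 and 83.6. The ranges were nearly the same, and the difference was 0.02 (SE 0.12, 95% interval -0.23 to 0.28, limma adjusted p = 0.998).

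Vps26a, an alternative arm of retromer beside Vps26b, had the highest difference among the disomic members by their brightest probe set. It ran from 38.2 to 62.9 in 2N with a median of 57.8, and from 47.4 to 78.8 in Ts1Cje with a median of 61.3. In Ts1Cje 3 of 6 samples lay above every 2N sample, and the others lay within the 2N range. The difference was 0.24 (SE 0.15, 95% interval -0.086 to 0.56, limma adjusted p = 0.99), and the upper end, 1.47-fold, fell below 1.5-fold. Among replicates 3 to 6 it was 0.087 and among replicates 1 and 2 it was 0.53. Vps26b ran from 119 to 204 in 2N with a median of 165, and from 123 to 181 in Ts1Cje with a median of 154. All Ts1Cje samples lay inside the 2N range, and the difference was -0.04 (SE 0.13, 95% interval -0.32 to 0.24, limma adjusted p = 0.998). On array B a dimmer Vps26b probe set had means of 15 ± 2.73 and 13.2 ± 4.25 (SD, n = 6 each) and differed by -0.25 (SE 0.25, limma adjusted p = 0.996).

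**Figure D2:**
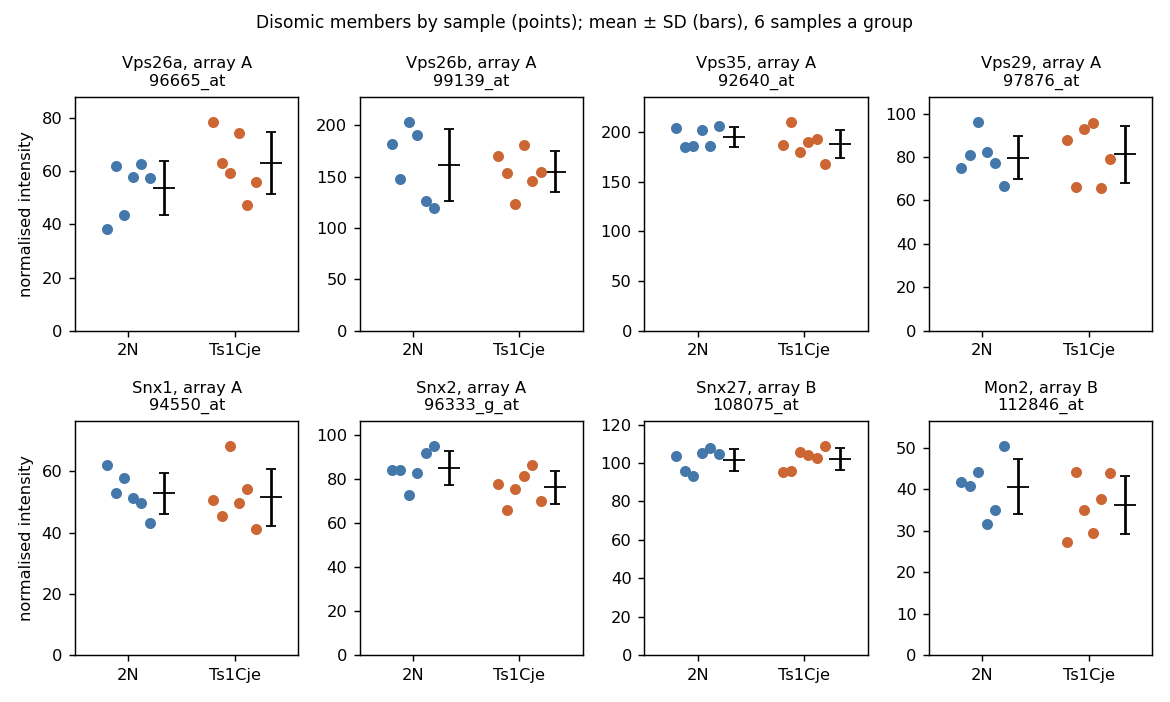
Normalised intensity (vertical axes, linear, from 0) of 1 probe set of each disomic member in each sample, with the group mean ± SD beside the points (n = 6). The groups overlap in every panel. Vps26a has 3 Ts1Cje samples above all 2N samples. The array B probe set is drawn for Snx27.

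None of the 5 tested probe sets of Snx1 and Snx2, the sorting nexins of the tubule coat, passed. Snx1 on array A ran from 43.0 to 62.1 in 2N and from 41.2 to 68.3 in Ts1Cje, with medians of 52.2 and 50.1. The groups overlapped along nearly their whole length, and the difference was -0.04 (SE 0.13, 95% interval -0.32 to 0.24, limma adjusted p = 0.998). On array B the Snx1 probe sets had opposite signs. The brighter one differed by -0.09 (SE 0.17), and the dimmer one, at 12.1 ± 2.49 in 2N and 15.5 ± 2.97 in Ts1Cje (SD, n = 6 each), by 0.36 (SE 0.20, 95% interval -0.054 to 0.78). Neither passed (limma adjusted p = 0.996 for each), and 3 of 6 Ts1Cje samples of the dimmer set lay above all 2N samples. Its difference was 0.78 among replicates 1 and 2 and 0.15 among replicates 3 to 6.

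Snx2, the partner of Snx1, ran from 73.0 to 95.1 in 2N with a median of 84.1, and from 66.0 to 86.3 in Ts1Cje with a median of 76.8. In 1 of 6 Ts1Cje samples it exceeded the 2N median. The difference was -0.16 (SE 0.099, 95% interval -0.37 to 0.048, limma adjusted p = 0.99). Another Snx2 probe set differed by 0.02 (SE 0.13), so the sign was not shared. The remaining one was too dim to be tested, at 0.2 to 5.25 in 2N and 0.2 to 1.5 in Ts1Cje. Of its 12 values 7 were at the floor.

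Snx27, the cargo adaptor, was measured best on array B, where it ran from 93.1 to 108 in 2N with a median of 104, and from 95.4 to 109 in Ts1Cje with a median of 103. This was the smallest difference among the 15 disomic probe sets, at 0.0074 (SE 0.075, 95% interval -0.15 to 0.16, limma adjusted p = 0.996). Another array B probe set differed by 0.03 (SE 0.14). The array A probe set, near the floor at 2.65 to 12 over the 12 samples, differed by -0.17 with an interval from -1.14 to 0.81 that is too wide to bound a change.

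Mon2, the scaffold that acts with Dop1b, ran from 31.5 to 50.4 in 2N with a median of 41.4, and from 27.4 to 44.1 in Ts1Cje with a median of 36.3. No Ts1Cje sample lay above all 2N samples. The difference was -0.17 (SE 0.15, 95% interval -0.48 to 0.13, limma adjusted p = 0.996). A dim Mon2 probe set, at 0.775 to 8.95 over the 12 samples, differed by 0.03 (SE 0.51).

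Over both arrays 7 of the 15 disomic probe sets were above 0 and 8 below, between -0.25 and 0.36. Their 15 intervals all held 0, and 12 ended below 1.5-fold. The other 3 were the dim probe sets of Snx1, Snx27 and Mon2. No disomic probe set reached an unadjusted limma p under 0.05, where 3.63 percent of probe sets did on array A and 4.24 percent on array B.

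**Figure D3:**
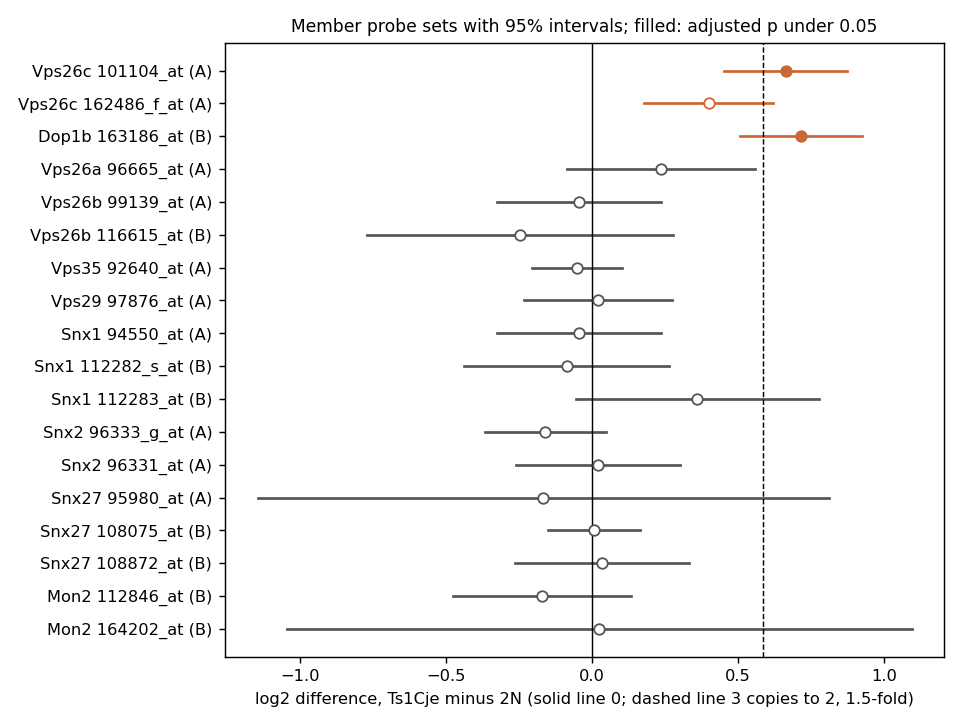
Log2 difference, Ts1Cje minus 2N, of the 18 tested member probe sets with 95% intervals of the limma fit (array in brackets, filled points with adjusted p under 0.05, dashed line at 1.5-fold). Vps26c at 0.66 and Dop1b at 0.72 are the filled points, and the interval of every disomic probe set crosses 0.

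Whether a trisomic member differed from the disomic ones was tested directly. In each sample the log2 value of the other gene was subtracted from that of the trisomic member. For Vps26c only the brighter probe set was used, and the second one was not set against the disomic members. The difference of Vps26c exceeded that of 7 of 8 disomic probe sets on array A, where 69.9 percent of all other probe sets also passed this test. The count is therefore not read as a result about these members. The Vps26c difference exceeded Vps35 by 0.71 (95% interval 0.46 to 0.97, limma adjusted p = 0.00012), Vps26b by 0.71 (adjusted p = 0.0002), Vps29 by 0.64 (adjusted p = 0.00043) and Snx1 by 0.71 (adjusted p = 0.00046). For each of these 4 genes, and for the brighter Snx2 probe set, the margins of the genotypes did not overlap. The values of Vps26c alone did not overlap either. How many other probe sets give such margins was not counted, so the lack of overlap is not read as particular to these members. The exact permutation p (two-sided) of each margin without overlap was 0.0022, the least possible with 6 against 6, and follows from that lack of overlap. Over Snx2 the margin was 0.82 and 0.64 by probe set (adjusted p = 0.00011 and 0.0022).

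The margin over Vps26a was narrower, 0.43 (95% interval 0.062 to 0.79, limma adjusted p = 0.036), and in 3 of 6 Ts1Cje samples it exceeded that of every 2N sample. Its exact permutation p was 0.056, and the limma call was lost without 2N replicate 2, 5 or 6 or Ts1Cje replicate 3, 5 or 6 (adjusted p between 0.062 and 0.102). The margin over the dim Snx27 probe set was 0.83 (95% interval -0.23 to 1.89, limma adjusted p = 0.15) and did not pass.

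The difference of Dop1b exceeded that of 5 of 7 disomic member probe sets on array B, where 68.2 percent of all other probe sets passed. The count lies near that share and is not read as a result about these members. The Dop1b difference exceeded Mon2 by 0.89 (95% interval 0.50 to 1.28, limma adjusted p = 0.00051) and Snx27 by 0.71 (95% interval 0.47 to 0.95, adjusted p = 0.0001) and 0.68 (adjusted p = 0.002) by probe set. It exceeded Vps26b by 0.96 (adjusted p = 0.0045) and the brighter Snx1 probe set by 0.80 (adjusted p = 0.00028). Over the dimmer Snx1 probe set it was 0.35 (95% interval -0.099 to 0.81) and over the dim Mon2 probe set 0.69 (95% interval -0.37 to 1.75), and neither passed (limma adjusted p = 0.15 and 0.22).

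Dop1a, Atp9b and Vps35l, partners or relatives of the trisomic members that were picked after their values were seen, were set against Dop1b in the same way. Dop1a, the paralog of Dop1b, ran from 11 to 21.1 in 2N and from 15.8 to 26.2 in Ts1Cje on array B, with medians of 13.9 and 17.1. The groups overlapped, with 1 Ts1Cje sample above all 2N samples, and Dop1a differed by 0.36 (SE 0.19, limma adjusted p = 0.996). The margin of Dop1b over Dop1a was 0.35 (95% interval -0.084 to 0.79, limma adjusted p = 0.14), so their responses were not shown to differ. The margin of Dop1b over the flippase gene Atp9b was 0.52 (95% interval 0.21 to 0.83, limma adjusted p = 0.0047), and that over the retriever scaffold gene Vps35l was 0.59 (95% interval 0.29 to 0.90, limma adjusted p = 0.0018).

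**Figure D4:**
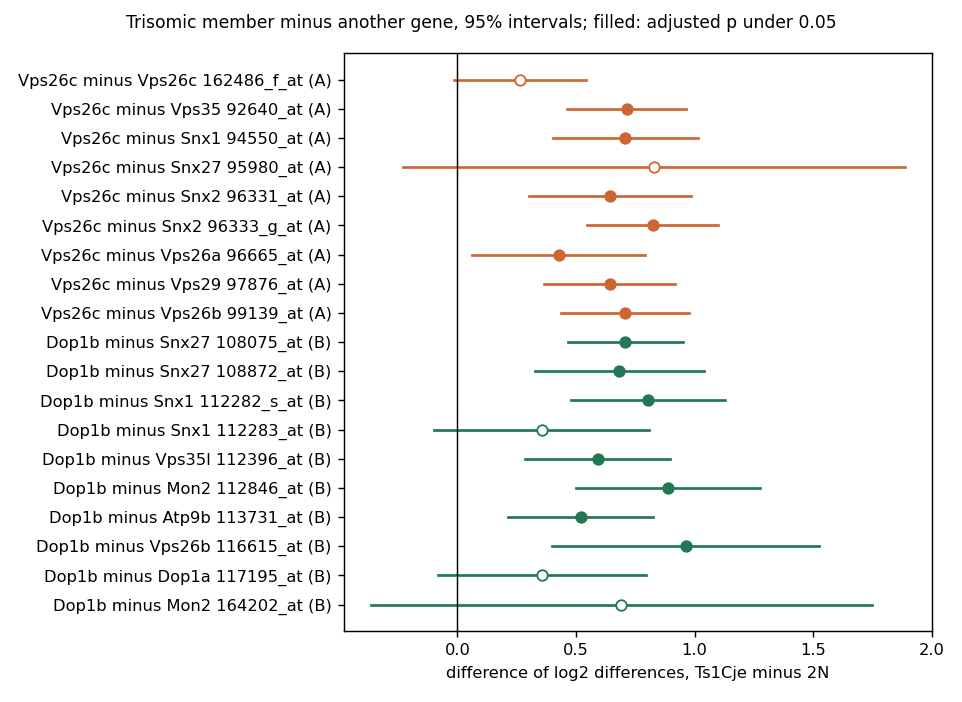
Log2 difference of the brighter Vps26c probe set (array A) or of Dop1b (array B) minus that of another probe set, with 95% intervals of the limma fit (filled points with adjusted p under 0.05 over the whole table). All margins lie above 0. The open points are the second Vps26c probe set, Dop1a and the dim probe sets of Snx27, Snx1 and Mon2.

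Other genes of endosomal sorting were taken from 7 lists of 82 genes, of which 71 were measured by a tested probe set. Of these 0 passed by limma, and 0 of their 109 tested probe sets passed. An unadjusted p under 0.05 was reached by 2 of the 71 (2.82%), against 3.66% of all 11489 named genes. Of the 71, 29 were above 0 and 42 below, with a median of -0.0071, where the median of all named genes was -0.0038.

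Among 13 measured subunits of retriever and the CCC complex, 5 were above 0 and 8 below. Vps35l, which forms retriever with Vps26c and Vps29, ran from 44.7 to 58 in 2N and from 51.4 to 66.5 in Ts1Cje, with medians of 55.1 and 59.3. In Ts1Cje 4 of 6 samples lay above all 2N samples, but the difference was 0.12 (SE 0.099, 95% interval -0.083 to 0.33, limma adjusted p = 0.996). Commd4 and Commd7, the brightest CCC genes, differed by -0.08 and -0.04. Of the 5 WASH complex genes, whose products build actin on endosomes, 4 were above 0, with Washc2 at 0.09 and Washc4 at 0.16 (SE 0.089).

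Of 17 other sorting nexins, 4 were above 0 and 13 below, with a median of -0.0098. Snx3, which recruits retromer to early endosomes, differed by -0.0089 (SE 0.055) and Snx30 by 0.0031 (SE 0.069). Snx17, the adaptor of retriever, is named here after its value was seen, as 1 of the 2 genes with an unadjusted p under 0.05. It ran from 54.6 to 93.5 in 2N with a median of 77.8, and from 41.2 to 69.0 in Ts1Cje with a median of 50.5, and 4 of 6 Ts1Cje samples lay below all 2N samples. Its difference of -0.49 (SE 0.16) did not pass (limma adjusted p = 0.99), and a dimmer Snx17 probe set was at 0.22 (SE 0.27) with the other sign.

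Of 9 measured regulators of retromer, 1 was above 0 and 8 below, with the GTPase genes Rab7 at -0.12 (SE 0.11) and Rab11a at -0.06 (SE 0.086). Among genes listed with Dop1b and Mon2, the flippase gene Atp9a differed by -0.04 (SE 0.088). Tmem30a, which encodes a flippase subunit, differed by -0.0038 (SE 0.091), and its listing implies no link to Dop1b or Mon2. Of 12 measured cargo genes 8 were above 0. App, the amyloid precursor protein gene, and Lrp1, a lipoprotein receptor gene, differed by 0.04 (SE 0.071) and 0.08 (SE 0.060). Of 11 measured genes of the HOPS, CORVET and GARP tethers, which help endosomes and Golgi membranes fuse, 5 were above 0, with Vps41 at -0.09 and Vps53 at -0.0070. Vps33a, also named after its value was seen, was the other gene with an unadjusted p under 0.05, at 0.28 (SE 0.12, limma adjusted p = 0.996), and its dimmer probe set was at -0.42 (SE 0.40).

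**Figure D5:**
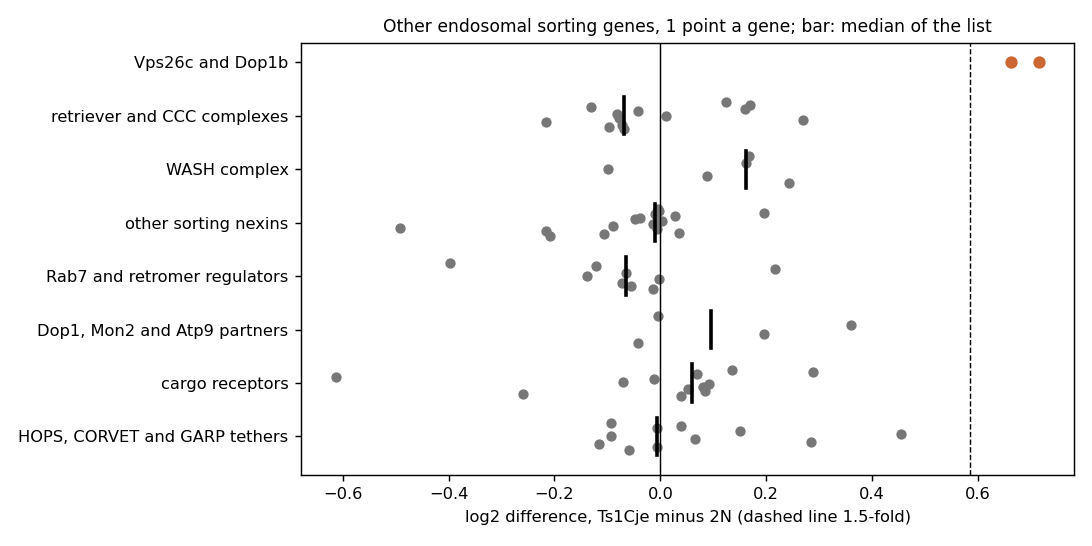
Log2 difference, Ts1Cje minus 2N, of the 71 other sorting genes (1 point a gene, grouped by list, bar at the list median) with Vps26c and Dop1b above them. The points lie between -0.61 and 0.45, and both ends are imprecise probe sets (SE 0.55 and 0.44, mean intensity 6.65 and 16.5). The low end is the array A probe set of Sorl1, whose array B probe sets differed by -0.017 (SE 0.13) and -0.084 (SE 0.21). The trisomic members at 0.66 and 0.72 lie to the right of the dashed line at 1.5-fold.

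The genes whose log2 values followed Vps26c most closely over the 12 samples of array A were Son (Pearson r = 0.94, Spearman rho = 0.83), Ets2 (r = 0.89, rho = 0.86) and Pf4 (r = 0.88, rho = 0.83), out of 8375 probe sets of other genes. For Dop1b on array B they were Son (r = 0.89, rho = 0.82), Dscam (r = 0.88, rho = 0.85) and Synj1 (r = 0.84, rho = 0.85), out of 8293. All of these but Pf4 lie distal to Sod1, and the 12 samples share the genotype contrast, which sets much of r. With the genotype means subtracted the closest were Gja1, Rnf7 and Slc6a4 for Vps26c (r = 0.87, 0.86 and 0.86) and Kdm2b, Pank4 and Gsg1 for Dop1b (r = 0.88, 0.87 and 0.85), none of them distal to Sod1. On that scale r between Vps26c and the disomic member probe sets of array A ran from -0.63 (Snx27) to 0.54 (Vps26b), and r between Dop1b and those of array B from -0.58 (Mon2) to 0.67 (Snx1). These values are descriptions of 12 samples that share array and scaling.

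The brightest probe sets of the neuronal genes Tubb3 and Stmn2 had mean intensities of 2739 and 1867. Of 4 liver genes, Alb (4.44), Ahsg (1.64) and Ttpa (1.86) were too dim to be tested, while Apoa2 had a tested probe set at 10.4 that differed by 0.82 (SE 0.42, limma adjusted p = 0.99). The myelin genes Mog and Mobp were also near the floor on array A, Mog at 1.15. The myelin gene Mbp was not, with tested probe sets at mean intensities of 35.4 and 20.8 on that array. The brightest Sox10 probe set of array A had a mean of 57.9. Of 26 measured marker genes of 7 cell types or tissues, each by 1 probe set, 0 passed by limma, and 0 reached an unadjusted p under 0.05. Of all 48 tested marker probe sets 0 passed, and unadjusted p-values beyond the 26 were not counted. The summed level of 4 oligodendrocyte probe sets on array B was 63.5 to 96.8 in 2N and 88.0 to 107 in Ts1Cje (exact permutation p = 0.015), while on array A it was 101 to 161 and 114 to 147 (exact permutation p = 0.99). On array B 1 Sox10 probe set, with a mean of 72.3, made up most of that sum, beside 3 Mobp probe sets at 4.95 to 6.42. That Sox10 probe set is not among the 26, and its own difference is not given here. By the probe set that stands for each gene, Mbp differed by -0.06 and Sox10 by -0.06 on array A and Mobp by -0.38 on array B, so 0 of 3 were above 0. The part of the summed level in the Dop1b difference was not tested.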

How the data were processed

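Per the labels, total RNA of mouse brain was measured on 12 array A and 12 array B samples, 6 of each genotype. The deposited values are linear intensities of probe sets. The authors' scanning and summarising software is not given in sources used here. After 66 control probe sets were left out of each table, arrays were quantile normalised, because trimmed means (2% from each end) varied 2.10-fold among the array A samples and 1.86-fold among those of array B. Values under the 10th percentile of the table (1.47 and 1.13) were set to it, before log2 was applied. The dimmest probe sets, with means below the 25th percentile, were left out, and the others were fitted with limma 3.58.1 in R 4.3.3 (lmFit, eBayes with a mean-variance trend, no block). The code was tested on simulated data. The floor shrinks differences of dim probe sets, and the number of arrays limits precision. The tables were handled separately.

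Each gene took the value of its brightest tested probe set, on array A where it was on both. Names are those of the platform annotation, brought to GRCm38.p6 symbols by gene ID (found for 10817 of 10833 array A probe sets with 1 symbol, and for 10550 of 10581 on array B). Probe sets with several symbols (396 and 178) were not named. The named genes were every member, the 2 brightest genes of each other list where none passed, App, Sod1 and the 3 genes most like Vps26c and Dop1b. Dop1a, Atp9b, Vps35l, Snx17, Vps33a, Sorl1 and the marker genes are named outside this rule, chosen after their values were seen. Single values were also compared by two-sided exact permutation. The members and lists were chosen with earlier results of these data known. Alternatives changed the normalisation, floor, offset, filter, variance model, array weights, replicate block, replicate split and probe set summary, and left out each sample in turn. Same-numbered samples of the genotypes correlated at 0.017 to 0.077 on array A and 0.013 to 0.11 on array B after group means were subtracted. All of these were above 0, so the values do not exclude pairing. Nothing in the labels says that the numbers pair samples, and the main fit therefore had no block.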

Additional observations from a re-analysis of the deposited data

How the results depend on the processing

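Vps26c and Dop1b stayed higher in Ts1Cje under every alternative run. With a sample left out, the Vps26c difference lay between 0.61 and 0.72 and that of Dop1b between 0.68 and 0.76, and both passed each time (limma adjusted p up to 0.026 and 0.047). Without normalisation between arrays the differences were 0.61 and 0.77, and without the mean-variance trend 0.66 and 0.72 (limma adjusted p = 0.051 and 0.16). Under each of these settings 0 members passed on either array, while every left-out sample gave 1 on each. The cause was not tested. With the replicate number as a block the differences were 0.66 and 0.72 and both passed (limma adjusted p = 0.019 and 0.013), and the block changed no call of another member or of the other sorting genes. The margins between members were not fitted with the block. After genotype means were subtracted, a 2N sample correlated best with the Ts1Cje sample of its own number in 3 of 6 cases for array A and 2 of 6 for array B.

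Of 361 alternative values of the other member probe sets, 0 passed and 36 had another sign. With every sample in, these were the dim Mon2 probe set at -0.012 with array weights and -0.066 with a 5th percentile floor, Snx1 at 0.137 as the mean of its array B probe sets and at 0.000198 on array A with array weights, Snx2 at -0.0297 and Vps29 at -0.0357 without normalisation, and Snx27 at -0.0097 when arrays were scaled to a trimmed mean. With a sample left out, the sign also turned for Vps26b on array A (-0.125 to 0.0291), Snx2 (-0.0219 to 0.0624), Vps29 (-0.0294 to 0.0798), Snx27 (-0.0175 to 0.0267, -0.076 to 0.0972 and, on array A, -0.406 to 0.0302), the dim Mon2 probe set (-0.22 to 0.429) and Snx1 (-0.129 to 0.0165 on array A, -0.191 to 0.0281 on array B). Of 255 alternative margins of a trisomic over a disomic member, 0 changed sign. With a sample left out, 6 to 7 of 8 passed for Vps26c and 5 of 7 for Dop1b. With 16 added before log2 the margins over the dim Snx27, Snx1 and Mon2 probe sets also passed (0.572, 0.398 and 0.526).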
